A study of Caenorhabditis elegans with 4 samples.

Results

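Wide binding regions of GEI-11 are the regions of 600 bp or more in the combined list of regions from fed first-stage (L1) larvae of Caenorhabditis elegans. The rule selected 670 of 5999 combined regions (11.2%), all on the 6 nuclear chromosomes, chosen by the distance from a region's start to its end. Width is therefore not a finding, and the strength of a region (its q value) and its match in each replicate come from the same libraries. These values are given as a description and were not tested. At the edge of the rule the change was gradual, with 23 regions of 590 to 599 bp and 24 of 600 to 609 bp. The widest region outside, on chromosome III from 11444714 to 11445312, was 599 bp wide with a −log10 q of 7.21, and was 589 bp wide in replicate 1 and 387 bp in replicate 2. Of the 4 regions of exactly 600 bp, those on III from 931226 and X from 409919 were found in both replicates, with −log10 q of 14.1 and 17.6. The others, on II from 4908037 and IV from 4028098, were found in replicate 2 and not in replicate 1, with 2.51 and 6.39.

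All samples came from hermaphrodites of strain OP179, genotype unc-119(ed3) III with the transgene wgIs179, which carries unc-119(+) and gei-11 joined to TY1, EGFP and 3xFLAG tags. The transgene was introduced by bombardment into 1 strain, so any effect of its copy number or place is shared by every sample, and the labels list no mutation of the worm's own gei-11 gene. Larvae were fed HB101 bacteria at 20 °C and fixed in 2% formaldehyde, and antibodies against GFP collected the tagged protein from whole animals. There were 2 ChIP samples and 2 inputs, and the region lists used were 1 per ChIP replicate plus the combined list. The inputs gave 0 lists, so there is no list of background regions to set beside these, and it is not stated whether the replicates came from separate cultures.

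GEI-11 is also named SNPC-4. It is the DNA-binding subunit of SNAPc, the complex that starts transcription of small nuclear RNA genes from a short promoter element. In this species SNPC-4 is also known for its part in transcription of 21U-RNAs, the piRNAs of the worm, whose genes lie in broad domains of chromosome IV. PeakSeq, the program named in the lists, scores stretches of the genome with more ChIP reads than a control and gives each a q value, the false discovery rate at which it is called. PeakSeq joins enriched stretches that lie close together, so 1 region can span more than 1 stretch of signal. No genome sequence or annotation of the same build (WormBase WS220) was used, so the genes and sequence under each region are not analysed here.

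The 670 wide regions covered 608 kb, 28.7% of the 2119 kb covered by all combined regions. Their widths ran from 600 to 4021 bp with a median of 790 bp, and 149 were 1000 bp or wider, 41 were 1500 bp or wider and 18 were 2000 bp or wider. The median of narrower regions was 293 bp. On the −log10 q scale the medians were 11.8 for wide and 3.76 for narrower regions. There were 380 wide regions with a q value of 1e-10 or less (56.7%, 95% exact Clopper-Pearson interval 52.9 to 60.5), against 19.7% of all combined regions. The remaining wide regions were weaker, and 53 had a q value above 1e-4. Among the 100 strongest combined regions 56 were wide, and among the 500 strongest 205. These ranks hold within the combined list, which lacks some of the strongest regions of the replicates, described below. Width and −log10 q had a Spearman rho of 0.68 across all 5999 combined regions and of 0.28 across the 670 wide ones, whose points share the same pair of libraries. The second rho is taken over a range of widths that the rule cut short. In steps of width within the class, the median −log10 q was 9.60 below 800 bp, 12.8 from 800 to under 1000 bp, 15.5 from 1000 to under 1500 bp and 29.1 at 1500 bp or more. The share with a q value of 1e-10 or less was 47.4%, 60.1%, 70.4% and 85.4% in these steps.

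**Figure D1:**
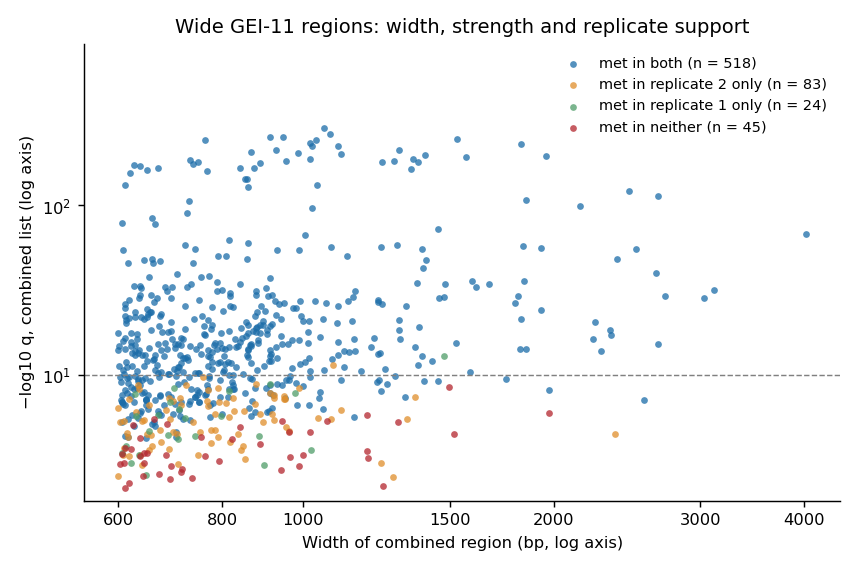
Each point is 1 wide combined region, placed by its width in bp and its −log10 q (both log axes) and coloured by the replicates in which an overlapping region was called. The dashed line marks a q value of 1e-10, and 378 of the 380 regions on or above it were met in both replicates. Narrower regions of that strength are not shown.

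The 10 wide regions with the smallest q values were mostly unbroken in the replicates, and their widths ran from 763 to 1828 bp. The strongest of the combined list, on chromosome III from 11090082 to 11091142, had a q value of 4.54e-286 and a width of 1061 bp, and was 1 region of 921 bp in replicate 1 and 1 of 1034 bp in replicate 2. Its −log10 q was 172 in replicate 1 and 224 in replicate 2. Next on III came the region from 5080419 (1078 bp in the combined list, 1202 and 970 bp in replicates 1 and 2) and the region from 10989144 (914 bp, 842 and 847 bp). On chromosome I, the region from 13463452 was 946 bp wide (837 and 938 bp in the replicates), the region from 2084242 was 1533 bp (1438 and 1316 bp) and the region from 4171783 was 1019 bp (926 and 1001 bp). On chromosome II, the regions from 12944409, 5844480 and 14017785 were 1036, 763 and 1103 bp wide. In all 9 of these regions each replicate had exactly 1 region. The exception among the 10 was chromosome I from 10516519 to 10518346, 1828 bp wide, which was 1 region of 1701 bp in replicate 1. In replicate 2 it was a piece of 996 bp with a −log10 q of 162 and a piece of 486 bp with 27.3, set 278 bp apart.

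The 10 widest regions were more often broken, and 7 of them were several regions in at least 1 replicate. The widest of all, on chromosome III from 9050876 to 9054896, spanned 4021 bp at a −log10 q of 68.2. Replicate 1 divided it into pieces of 2231 and 1064 bp, and replicate 2 into pieces of 1011, 455 and 1505 bp. The first gap of replicate 2, 530 bp long, lay wholly inside a replicate 1 region. Its second gap, 224 bp long, was covered over 36.2% in replicate 1 and met the replicate 1 gap of 288 bp. The widest region of chromosome I, from 7082004 to 7085117 (3114 bp, −log10 q 31.7), was a pair of pieces in each replicate, 1176 and 1048 bp in replicate 1 and 1324 and 492 bp in replicate 2. Both replicates left a gap in its middle, 603 bp long in replicate 1 and 1086 bp in replicate 2.

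Chromosome V held a pair of neighbours 1230 bp apart among the 4 widest. The region from 6226951 to 6229981 (3031 bp) was 3 pieces of 953, 457 and 785 bp in replicate 1 and 2 pieces of 1623 and 560 bp in replicate 2. Each replicate 1 piece was weak, with −log10 q of 4.54, 3.48 and 2.29, where the combined value was 28.6. The region from 6223001 to 6225720 (2720 bp, −log10 q 29.1) was covered over 32.8% of its length in replicate 1, by pieces of 606 and 287 bp, and over 54.6% in replicate 2, by 1 region of 1484 bp. At both neighbours the combined list thus spanned stretches that the single replicates called in parts or left out.

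On chromosome X the fifth and sixth widest had the same width, 2669 bp, and opposite structure. The region from 16929294 to 16931962 was 1 region of 2616 bp in replicate 1 and of 2570 bp in replicate 2, with −log10 q of 45.9 and 66.2, and the replicates covered 98% and 96.3% of it. The region from 6740594 to 6743262 was 3 pieces in replicate 1, of 751, 333 and 402 bp, and 2 in replicate 2, of 1134 and 508 bp. None of its pieces had a −log10 q above 5.87, while the combined value was 15.2. Chromosome II from 8418903 to 8421560 (2658 bp) differed most between replicates in coverage among the 5 of the 10 that were split in both. Its 3 pieces in replicate 1, of 356, 333 and 80 bp, covered 28.9%, and its 2 pieces in replicate 2, of 881 and 1459 bp, covered 83.1%.

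Of the last 3 of the 10, chromosome V from 18718757 (2570 bp) was weak, with a −log10 q of 7.06, and its replicate regions of 1109 and 1661 bp covered 34.4% and 64.6%. Chromosome V from 1803970 (2512 bp) was 1 region in each replicate, of 2188 and 2346 bp. Chromosome III from 10016442 to 10018902 (2461 bp, −log10 q 123) was 1 region of 2515 bp in replicate 1, with a −log10 q of 113. In replicate 2 only 26.9% of it was covered, by pieces of 493, 12 and 156 bp with −log10 q of 7.79, 3.07 and 2.72. Among these 10 regions it had the largest difference in strength between the replicates. The widest region of chromosome IV, from 17279311 to 17281646, was 2336 bp wide and ranked 14 by width. It was 2 pieces of 616 and 411 bp in replicate 1 and 1 region of 696 bp in replicate 2.

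**Figure D2:**
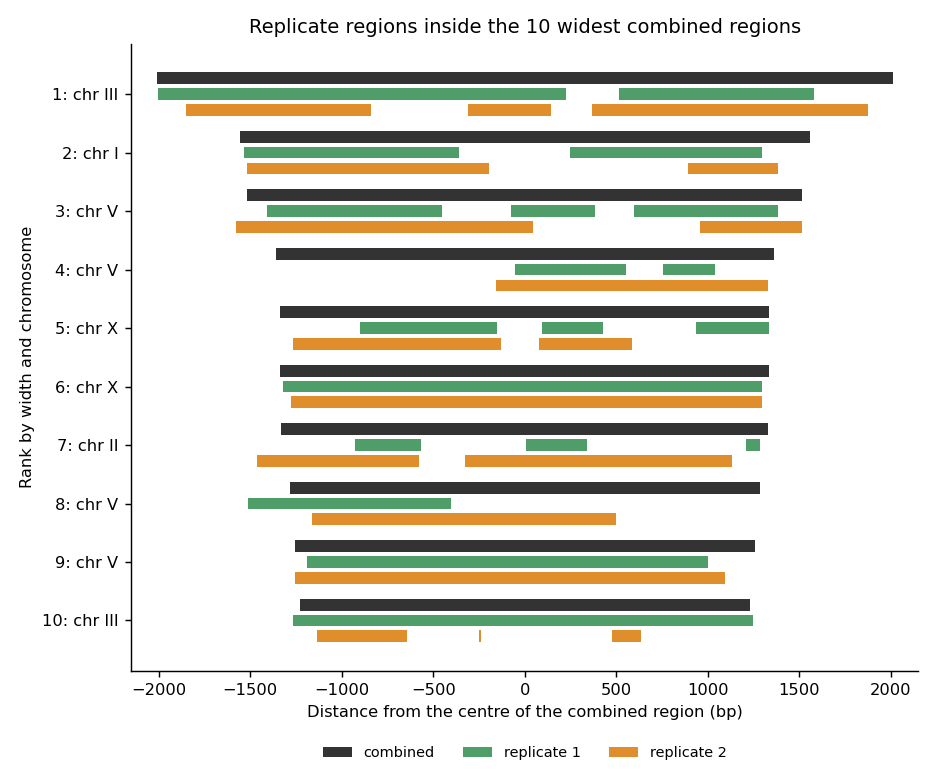
Combined region (black), replicate 1 regions (green) and replicate 2 regions (orange) for the 10 widest regions, as distance in bp from the centre of the combined region. Rank 1 on III spans 4021 bp and is broken in both replicates, and rank 6 on X is unbroken in both.

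Over all wide regions, 518 of 670 (77.3%, interval 74 to 80.4) overlapped a region of both replicates by at least 1 bp. The share over all combined regions was 38.8%. Replicate 2 alone met 83 wide regions (12.4%, against 19.9% of all combined regions), replicate 1 alone met 24 (3.58%, against 8.15%), and 45 were met in neither (6.72%, interval 4.94 to 8.88, against 33.2%). The combined list and the replicate lists share their reads and wide regions are stronger, so the higher share is no evidence about width. Support followed strength closely: 378 of the 380 wide regions with a q value of 1e-10 or less were met in both replicates, and 0 of the 53 with a q value above 1e-4 were. Narrower regions of the same strength were not counted, so these numbers show nothing particular to wide regions. Support rose less steeply with width, from 73.6% at 600 to under 800 bp to 92.7% at 1500 bp or more.

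The usual wide region was a single region in each replicate: 455 of 670 (67.9%, interval 64.2 to 71.4, against 37.7% of all combined regions). Several regions, which means 2 or 3, were found in replicate 1 for 39 wide regions (5.82%, interval 4.17 to 7.87, against 0.667% of all combined regions). In replicate 2 this held for 42 (6.27%, interval 4.55 to 8.38, against 0.717%). Counted together, 68 wide regions (10.1%, against 1.17%) were several regions in at least 1 replicate. These comprised 13 that were split in both replicates (0.217% of all combined regions were), 24 split in replicate 1 and whole in replicate 2 (0.417%), 26 whole in replicate 1 and split in replicate 2 (0.433%), and 5 split in one and absent from the other (0.1%). Neighbouring regions of a list lay at least 200 bp apart, so a wider region has more room to meet several others, and these shares carry no news about width by themselves. Among narrower regions 2 were split. When replicate regions closer than 300 bp were merged first, the numbers split in replicates 1 and 2 fell to 12 (1.79%) and 13 (1.94%), so most splits rest on short gaps. No replicate region reached across more than 1 wide region.

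Split regions had a median width of 1267 bp, and wide regions that were met but not split 770 bp. The share split rose from 3.16% (11 of 348) below 800 bp, through 6.36% (11 of 173) from 800 to under 1000 bp and 21.3% (23 of 108) from 1000 to under 1500 bp, to 56.1% (23 of 41) at 1500 bp or more. In replicate 1 there were 42 gaps of 201 to 868 bp with a median of 272 bp, and in replicate 2 there were 45 gaps of 200 to 1086 bp with a median of 265 bp. Of the replicate 1 gaps, 16 lay wholly inside a region of replicate 2, 19 did so for some of their bases and 7 held no bases of it. For the replicate 2 gaps these numbers were 15, 20 and 10. Of the empty gaps, 2 of replicate 1 and 3 of replicate 2 lay in wide regions that the other replicate did not meet at all, which leaves 5 and 7 gaps empty in both where both had a region.

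Some of the 13 regions split in both replicates broke at nearly the same point in each. The 3 described next are on chromosome II, as ties in the naming rule were taken by chromosome and start. Chromosome IV from 11592841, outside that rule, had gaps of 241 bp in replicate 1 and 231 bp in replicate 2 that mostly overlapped. Chromosome II from 11166325 to 11167567 (1243 bp, −log10 q 182) was a weak piece of 361 bp beside a strong one of 589 bp in replicate 1, with −log10 q of 8.33 and 118. In replicate 2 the same pair was 347 and 592 bp wide, with 6.38 and 148. Chromosome II from 6967501 to 6968855 (1355 bp, −log10 q 188) had the same build, with pieces of 462 and 575 bp in replicate 1 (−log10 q 13.3 and 110) and 464 and 586 bp in replicate 2 (14.6 and 152). Chromosome II from 13297487 to 13298242 was only 756 bp wide, yet was 2 pieces of 231 and 265 bp in replicate 1 and of 248 and 227 bp in replicate 2, all with −log10 q between 3.84 and 7.13. In these 3 regions the piece widths of the replicates differed by at most 38 bp. The gaps between their pieces were 202 to 299 bp, so merging below 300 bp would join them. It would also join the pieces on IV from 11592841. Less regular was chromosome II from 8015315 to 8017557 (2243 bp), with 1 region of 546 bp in replicate 1 and 3 pieces of 198, 551 and 800 bp in replicate 2. By chromosome, the 68 regions split in at least 1 replicate were 19 of the 110 wide regions of II, 16 of 104 on IV and 14 of 132 on V. On III they were 12 of 96, on X 4 of 127 and on I 3 of 101. Over all chromosomes the share was 10.1% of wide regions and 1.17% of all combined regions.

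Being wide in the combined list did not mean being wide in a replicate. A replicate 1 region of 600 bp or more lay under 271 wide regions (40.4%, interval 36.7 to 44.3), and a replicate 2 region of that width under 293 (43.7%, interval 39.9 to 47.6). Over all combined regions these shares were 4.77% and 5.2%. Both replicates were wide at 181 (27%, interval 23.7 to 30.5, against 3.02% of all combined regions), and in the combined list the medians of these were 971 bp and a −log10 q of 25.2. Neither was wide at 287 (42.8%, interval 39.1 to 46.7, against 93% of all combined regions), with 681 bp and 7.35. In length, 46.6% of the 608 kb of wide regions was covered in both replicates, 12.3% in replicate 1 alone, 19% in replicate 2 alone and 22.2% in neither.

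For the 455 regions that were single in each replicate, the median width was 776 bp in the combined list, 601 bp in replicate 1 (range 47 to 2616 bp) and 596 bp in replicate 2 (124 to 2570 bp). The replicate region was the narrower one in 426 cases for replicate 1 and 427 for replicate 2, and covered a median of 78.7% and 81.4% of the combined region. It lay wholly inside the combined region in 365 and 373 cases and reached past an end in 90 and 82. The regions were chosen for width in the combined list, which by itself favours a narrower replicate region. These counts were not made for the other combined regions. Replicate 2 was the wider replicate in 233, replicate 1 in 219, and 3 were equal. Replicate 2 had the higher −log10 q in 337 of 455 (74.1%), with medians of 7.59 in replicate 2 and 5.80 in replicate 1. The stronger replicate was thus mostly replicate 2, while either was the wider about equally often. Sequencing depth is unknown, and a q value depends on it. Replicate 2 also had the longer list, 3722 regions against 3021 in replicate 1. The strength of the replicates was not compared over narrower regions. Widths in the replicates were correlated at Pearson r 0.67 and Spearman rho 0.48 across these 455 regions of 1 pair of libraries.

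**Figure D3:**
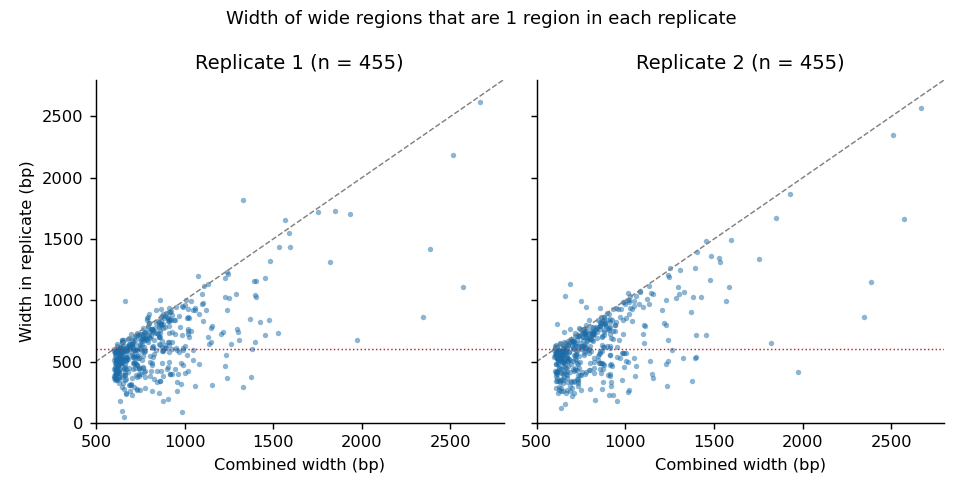
Width in each replicate (bp) against width in the combined list (bp) for the 455 wide regions that were 1 region in each replicate. The dashed line marks equal width and the dotted line 600 bp, and 426 and 427 regions lie below the dashed line in replicates 1 and 2.

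Seen from the replicates, 294 of 3021 regions (9.73%) were 600 bp or wider in replicate 1 and 316 of 3722 (8.49%) in replicate 2. Of these, 275 (93.5%) and 297 (94%) met a wide combined region, while 14 and 15 met only narrower ones. The remaining 5 of replicate 1 and 4 of replicate 2 met none, and among them were the strongest regions of both lists. Chromosome II from 13834206 was 1037 bp wide in replicate 1 (rank 3 by q value) and 1029 bp in replicate 2 (rank 1). Chromosome IV from 9510413 was 1726 bp (rank 4) and 1717 bp (rank 2), and chromosome X from 14476431 was 1399 bp (rank 7) and 1259 bp (rank 3). Ranks 1 and 2 of replicate 1, on II from 5543228 (1301 bp) and from 14804070 (837 bp), met no region of the other lists. These 5, chosen after their values were seen, are wide regions of a replicate that the combined list used here lacks, so the 670 are not every wide region of the experiment. The remaining region of replicate 2, on X from 6748821 (992 bp), was weak, with a −log10 q of 2.06 and rank 3634.

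The 45 wide regions met in neither replicate were weak, with −log10 q from 2.13 to 8.49 and widths from 603 to 1975 bp (median 736 bp). The widest was on chromosome I from 7657868 to 7659842 (1975 bp, −log10 q 5.94), followed by X from 6253553 to 6255069 (1517 bp, 4.47) and I from 10560102 to 10561599 (1498 bp, 8.49). The last was the strongest of the 45 and ranked 1444 in the combined list. Of the 45, 22 had another combined region within 1 kb, against 272 of all 670 wide regions (40.6%) and 18.5% of narrower ones. Another wide region lay within 1 kb of 12 of the 45, against 116 of all 670 (17.3%). Chromosome I held 14 of the 45 and X 11, so that 25 lay on these 2 chromosomes. Wide regions of chromosome I were met in both replicates in 69 of 101 cases (68.3%), of X in 89 of 127 (70.1%), of V in 104 of 132 (78.8%), of IV in 85 of 104 (81.7%), of II in 90 of 110 (81.8%) and of III in 81 of 96 (84.4%). Narrower regions of chromosome I were also met in both least often, in 24.1%, against 32.4% to 41% on the other chromosomes. Median −log10 q of the wide regions was 8.66 on X, 11.1 on V, 11.8 on IV, 13.1 on III and 14.4 on II, close to the order of support on these chromosomes. Chromosome I departed from it, with a median of 12.8 and the lowest support.

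Wide regions lay on every chromosome. Chromosome V held 132 (19.7%, interval 16.8 to 22.9), X 127 (19%, 16.1 to 22.1), II 110 (16.4%, 13.7 to 19.4), IV 104 (15.5%, 12.9 to 18.5), I 101 (15.1%, 12.4 to 18) and III 96 (14.3%, 11.8 to 17.2). Per Mb this was 7.21 on II, 7.17 on X, 6.97 on III, 6.70 on I, 6.31 on V and 5.95 on IV. The relative spread was smaller than for narrower regions, which numbered 68.3 per Mb on III and 46.3 on V. As a share of a chromosome's combined regions, wide ones made up 12.8% on X (interval 10.8 to 15.1), 12% on V, 11.9% on I, 11.2% on II, 10% on IV and 9.27% on III (7.57 to 11.2). Chromosome III thus held the most narrower regions per Mb and the smallest share of wide ones. The intervals of neighbours in this order overlap, and so do those of X and III at its ends. The place of X changed with the minimum width: at 800 bp its share was 5.15%, against 6.24% on I. The intervals cover counting error and treat neighbouring regions as independent.

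Each chromosome was next divided into 3 equal lengths, the outer ones called arms. Of the 670 wide regions 269 (40.1%) lay in the central parts and 401 (59.9%, interval 56 to 63.6) in the arms. Of the narrower regions 66.9% (interval 65.6 to 68.1) lay in the arms. The weaker wide regions, with q above 1e-10, had 56.2% in the arms (interval 50.3 to 62) and the stronger 62.6% (57.6 to 67.5). Those met in neither replicate had 19 of 45 in the arms (42.2%, interval 27.7 to 57.8). Chromosome X showed the largest differences between wide and narrower regions. Its right arm held 45 of 127 wide regions (35.4%) and 402 of 864 narrower ones (46.5%). Its centre held 44 wide regions (34.6%) and 181 narrower ones (20.9%). On chromosome II the left arm was poor in both classes, with 20 of 110 wide (18.2%) and 24.9% of the narrower regions. A larger share of wide than of narrower regions lay in the centre on I (42.6% against 34.1%) and II (43.6% against 36%). The same held on IV (42.3% against 32.3%) and V (42.4% against 37.2%). On chromosome III the order was reversed, and the centre held 35.4% of the wide and 37.6% of the narrower regions. No test was made of these differences.

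**Figure D4:**
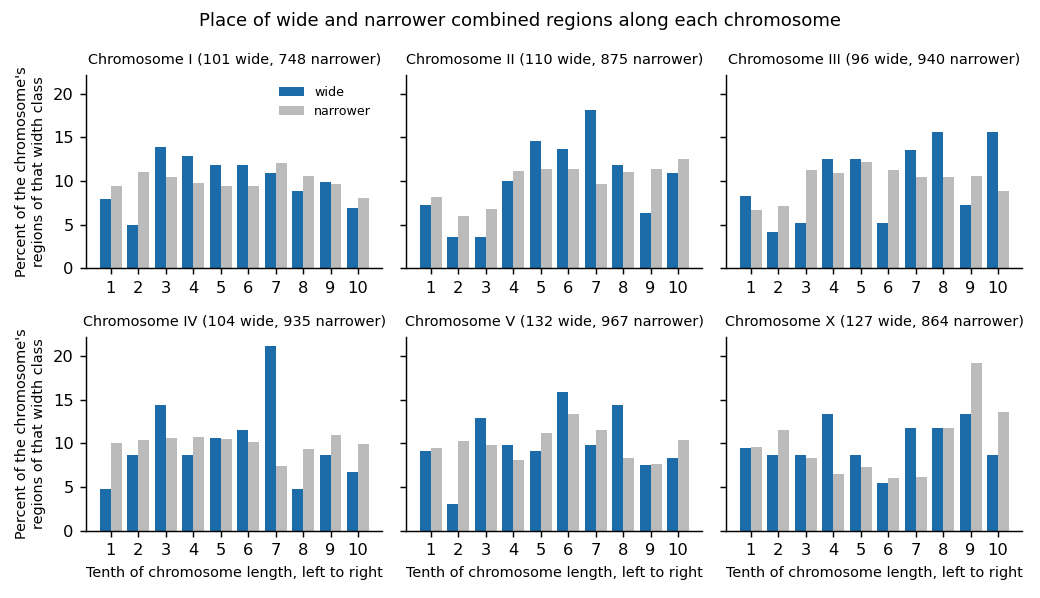
Percent of each chromosome's wide (blue) and narrower (grey) combined regions in each of 10 equal parts of its length, from left to right. The highest blue bar is part 7 of chromosome IV, with 22 of its 104 wide regions and 69 of its 935 narrower ones, and part 9 of X has 17 wide and 166 narrower.

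In blocks of 1 Mb the median was 6 wide regions (quartiles 4 and 9 over 97 full blocks). The block of chromosome IV from 11000001 to 12000000 held the most, 16, with 48 narrower regions, and V from 10000001 followed with 15 and 52. Chromosomes II from 8000001 and X from 6000001 held 13 each. The X block had only 22 narrower regions, and 5 of its 13 wide regions were met in neither replicate. The block of chromosome I from 7000001 held 12 wide and 44 narrower regions, and 5 of the 12 were met in neither. At the other extreme, IV from 1000001 to 2000000 held 0 wide regions and 54 narrower ones. Across the 97 full blocks, the numbers of wide and narrower regions were correlated at Pearson r 0.10 and Spearman rho 0.11, a description of blocks from 1 list. Blocks with many wide regions were not in general blocks with many narrower ones.

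Wide regions also lay near each other. Another wide region lay within 10 kb of 247 (36.9%, interval 33.2 to 40.6) and within 1 kb of 116 (17.3%, 14.5 to 20.4). Over all combined regions a wide region other than itself lay within 10 kb of 20.2% and within 1 kb of 5.17%. The median gap to the nearest other wide region was 26.9 kb for wide and 52.1 kb for narrower regions. To the nearest combined region of any width it was 1.66 kb for wide and 3.89 kb for narrower ones. The most isolated wide region lay 681 kb from the next. Joined wherever gaps were 10 kb or less, the 247 formed 99 groups, of which 67 had 2 members, 22 had 3, 6 had 4, 2 had 5, 1 had 6 and 1 had 7, and 423 stood alone. The medians of grouped members were 829 bp and a −log10 q of 10.5, and those of regions alone were 770 bp and 12.9. They were met in both replicates in 74.1% and 79.2% of cases. Of the 99 groups, 45 held both a member with a q value of 1e-10 or less and a weaker one. Chromosome III had the largest share of its wide regions in groups, 44 of 96 (45.8%), and X the smallest, 38 of 127 (29.9%).

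**Figure D5:**
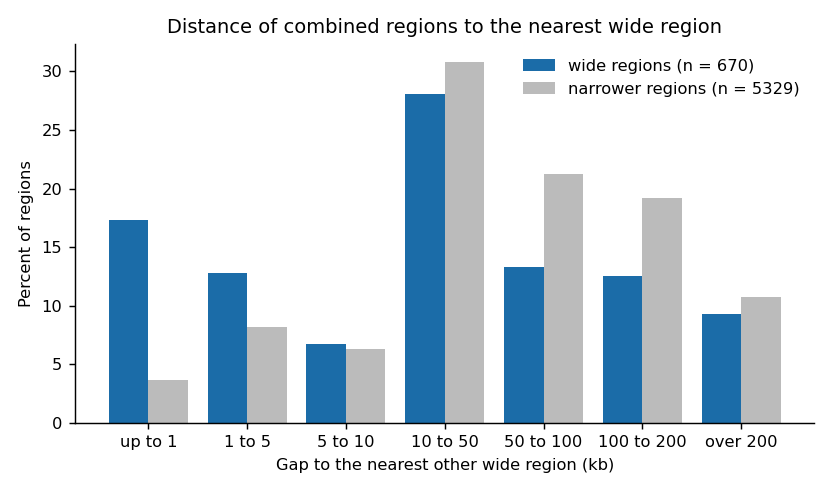
Percent of the 670 wide (blue) and 5329 narrower (grey) combined regions by gap in kb to the nearest other wide region. In the bin up to 1 kb lie 17.3% of wide and 3.64% of narrower regions, and over 200 kb lie 9.25% and 10.7%.

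The group with most members, 7, lay on chromosome II from 10541903 to 10559647. It spanned 17.7 kb, of which wide regions covered 49.8%, and its widths ran from 649 to 2347 bp. The −log10 q of its members ran from 4.48 to 18.5, and 6 of the 7 were met in both replicates. The weakest, from 10543565, was met in replicate 2 only. In the replicates no member had a −log10 q above 8.78. The group of 6 on chromosome V, from 18707749 to 18724779, had 1 member with a q value of 1e-10 or less. Its members had −log10 q of 3.01, 6.34, 4.49, 7.06, 2.21 and 15.3 from left to right and widths of 1242, 861, 2369, 2570, 1247 and 1527 bp. It was 57.6% covered by wide regions, and 3 of the 6 were met in both replicates. The last 4 of them formed a chain over 8759 bp with gaps of 1 kb or less.

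A group of 5 on chromosome I, from 5372470 to 5380325, was covered by wide regions over 69.5% of its 7.86 kb. Its −log10 q was 6.09, 5.29, 7.01, 14.1 and 25.2 from left to right. Only 3 of these 5 members were met in both replicates. The first was met in replicate 2 only, and the second, 1300 bp wide, in neither. The other group of 5, on chromosome III from 8794368 to 8802694, was met in both replicates at every member, and 1 of them, from 8795402, stood out with a −log10 q of 55.5 in a width of 741 bp. Next came 6 groups of 4, of which the first by chromosome and position is described, on chromosome I from 10553677 to 10566211. It set weak beside strong. The region from 10564251 to 10566211 (1961 bp) had a −log10 q of 197, with 126 in replicate 1 and 164 in replicate 2. The region from 10561881 had 55.5 and that from 10553677 had 39.6, while that from 10560102, 281 bp from its neighbour, had 8.49 and was met in neither replicate. Each of these 5 groups held at least 1 member with a q value of 1e-10 or less.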

How the data were processed

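Chromatin immunoprecipitation with sequencing was analysed from 3 deposited lists of binding regions, 1 per ChIP replicate and 1 combined. Per the file headers, positions are in WormBase WS220 and were carried over from another build, and 1 combined region was dropped in that step. The caller named in the lists is PeakSeq. The only measurement the authors deposited per region is a q-value, used here as −log10 q and as a rank within a list. Aligner, versions, filters, the use of the inputs and the way replicates were combined are not stated in the headers or labels, and depth is unknown. The genome positions of each region are the authors' own, counted from 1.

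Widths, overlaps, gaps and shares were computed with Python 3.11.15, pandas 2.3.3, numpy 2.4.6 and scipy 1.17.1. Regions matched when they shared at least 1 bp. Chromosome length was the furthest region end in any list. Shares carry 95% exact Clopper-Pearson intervals, for counting error only. No test was run, because width chose the members and all lists share libraries. The functions for matching and grouping were tested on simulated data. The members, lists and rules were chosen with earlier results of these data known. Regions were named by rule: the 10 widest, the 10 with the smallest q, the 10 with most replicate regions, the widest of each chromosome, the 3 widest met in neither replicate and the 5 largest groups, with ties taken by chromosome and start. Alternatives changed the minimum width, strength, overlap, merging, list, arms, distance and block size.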

Additional observations from a re-analysis of the deposited data

How the results depend on the processing

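No paired analysis was possible because neither input sample has regions that could be paired with those of its ChIP sample. Shares were recomputed under each alternative, and of 192 values 111 stayed inside the 95% interval of the reported share and 81 moved outside it. The number of replicate regions in the named regions was the same in all 84 cases tried. These cases covered the alternative overlap rules and merging below 100 bp. The named regions were not recounted after merging below 300 bp. Some have shorter gaps, such as 278 bp on I from 10516519 in replicate 2. Merging replicate regions closer than 100 bp could change nothing, since gaps were at least 200 bp. Merging below 300 bp and leaving out chromosome I were chosen after seeing the data. How far depth limits the weak wide regions cannot be said without read counts, and what lies behind a moved share was not tested unless the alternative itself sets it. Requiring an overlap of 50% of the shorter region, or the centre of the replicate region inside the wide one, left all 7 shares of replicate support inside their intervals.

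A minimum width of 500 bp gave 73.6% met in both replicates, 3.77% and 4.16% several in replicates 1 and 2, 27.2% and 28.9% wide in replicates 1 and 2, and 41.3% with a neighbour within 10 kb. Wide regions were then, by construction, a larger share of each chromosome's regions, in the order X, V, IV, III, II and I at 19.3%, 17.6%, 15.3%, 14.8%, 16.8% and 20.4%. A minimum of 800 bp gave 81.4%, 10.2%, 11.2%, 58.7%, 61.2% and 27% for the same measures, 15.8% of wide regions on X, 11.7% of blocks with 0 wide regions, and shares of 6.24%, 5.99%, 4.05%, 5.68%, 5.28% and 5.15% on I, II, III, IV, V and X. Regions of q 1e-10 or less gave 99.5% met in both and 0% in neither, 8.68% and 9.47% several, 85% single in each, 58.7% and 59.5% wide in the replicates, 25% with a neighbour, 15% of wide regions on X, and shares of 37.9%, 30.7%, 29.6%, 31.7%, 32.9% and 31.3% on I, II, III, IV, V and X.

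Merging below 300 bp gave 1.79% and 1.94% several in replicates 1 and 2 and 73.9% single in each. Regions met in both replicates gave 30.1% with a neighbour and wide shares of 27.7%, 20%, 19.8%, 20.3%, 24.9% and 23.2% on I, II, III, IV, V and X. Arms as the outermost of 4 equal parts, which are shorter, held 40.6% of wide regions, and in the order X, V, IV, III, II and I they held 50.4%, 37.1%, 42.3%, 40.6%, 36.4% and 35.6%. A distance of 5 kb gave 30.1% with a neighbour and 20 kb gave 46%. Blocks of 500 kb gave 8.37% with 0 wide regions. Without chromosome I, V held 23.2% and X 22.3%.

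With 1 replicate list alone, wide regions with a neighbour ran from 24.1% to 25.9%, from fewer wide regions, and empty blocks from 5.83% to 11.7%. Of the 670, 80.9% to 89.7% were met in the replicate kept and 10.3% to 19.1% were not. Wide shares ran on X from 9.28% to 9.67%, on V from 8.81% to 9.57%, on IV from 6.01% to 8.95%, on III from 6.47% to 8.59%, on II from 8.87% to 9.12% and on I from 13% to 15.4%. Chromosome X held 15% to 19.3% of wide regions, and the arms of II held 61% to 68.5% of its own.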
